A study of Mus musculus with 24 samples.

Results

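The grafts taken 14 days after transplantation compared skin that expresses a viral oncogene with ordinary skin on the same kind of host. The 6 libraries were chosen by their titles from the 24 of the series: 3 of ear skin from K14E7 donors grafted onto C57BL/6 recipients (called E7 grafts here) and 3 of ear skin from C57BL/6 donors grafted onto C57BL/6 recipients (C57 grafts). K14E7 mice carry the E7 oncogene of a human papillomavirus under the keratin 14 promoter, which drives it in basal keratinocytes. The other 18 libraries were grafts at day 28, grafts from K14E7 donors that also lack CD1d, and ungrafted ears. RNA of whole grafts was sequenced after selection of polyadenylated RNA, so each library held donor epidermis and dermis together with whatever cells the recipient had sent in, and the counts do not tell donor from recipient RNA. The labels gave no sex and no age for graft donors and recipients. Xist, the RNA of the inactive X chromosome, lay between 1612 and 2068 CPM (read counts scaled to a common library size) in all 6 libraries. The Y chromosome genes Ddx3y, Eif2s3y and Kdm5d had 0 counts in both groups, and Uty had 2 in each group. With Xist, that is the pattern of female tissue. Nothing in the labels said whether replicates came from separate animals, so the p-values below measure the spread between these samples.

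The E7 protein binds the retinoblastoma protein pRb and its relatives p107 and p130, which in resting cells hold the E2F transcription factors in check. Freed E2F factors switch on genes for DNA synthesis and mitosis, and the skin of K14E7 mice is known for a thickened, hyperproliferative epidermis with a chronic infiltrate of immune cells. A skin graft is also a wound: in its first weeks it heals in, so the C57 grafts were healing skin too.

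The 6 libraries held 6726995 to 9937396 counted reads. The E7 row had 213, 370 and 336 counts in the E7 grafts and 0 in each C57 graft, as the labels have it. Keratinocyte genes (Krt5, Krt14, Krt1, Krt10) and fibroblast genes (Col1a1, Col3a1) were at 3946 CPM or more in every library, as skin should have. Genes of ear cartilage were also present: Acan, the core proteoglycan of cartilage, lay at 84.6, 56.0 and 163 CPM in the C57 grafts and at 7.12, 42.9 and 31.6 CPM in the E7 grafts. The neutrophil surface gene Ly6g had 1 count in all 6 libraries together. Per-gene levels differed more between the groups than within them: the root-mean-square log2 distance was 0.38 to 0.453 among C57 grafts, 0.443 to 0.526 among E7 grafts and 0.566 to 0.749 between the groups.

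Of 16189 genes tested with edgeR's quasi-likelihood test, 2555 rose in E7 grafts and 2334 fell at a Benjamini-Hochberg adjusted p below 0.05. That is 30.2% of the genes tested, with 15.8% higher and 14.4% lower, and every count of genes below is to be read against these shares. The median log2 fold change over all genes tested was -0.035. Most changes were small: 485 genes rose and 402 fell at least 2-fold, and 71 rose and 47 fell at least 4-fold. Without C57 replicate 3 the number of changed genes dropped from 4889 to 3043. In 7643 genes, 47.2% of those tested, the 3 E7 grafts did not overlap the 3 C57 grafts. All these are RNA levels of whole tissue, in which more cells of a type and more RNA per cell cannot be told apart.

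**Figure D1:**
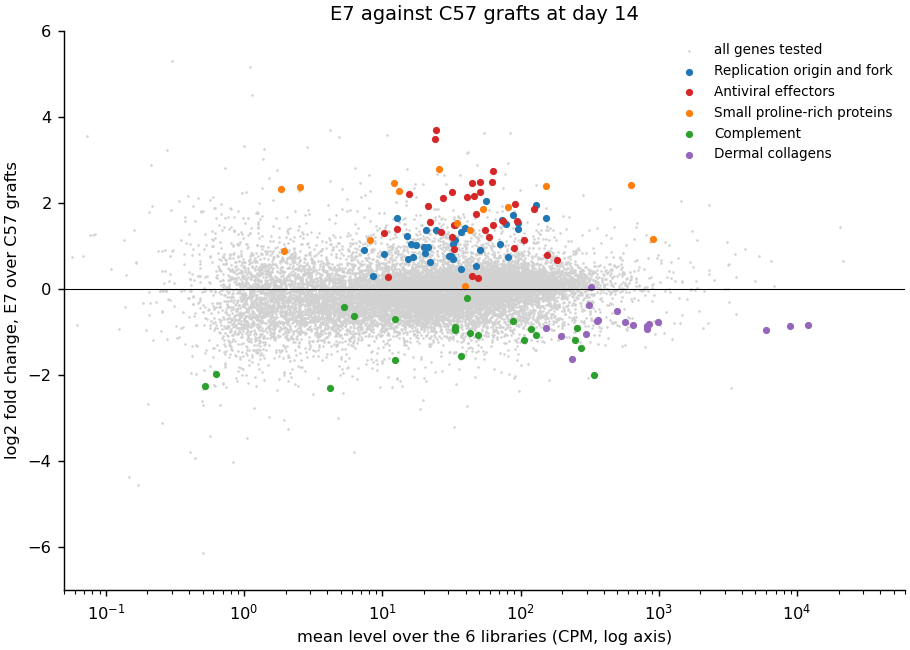
Log2 fold change of E7 over C57 grafts at day 14 against the mean level over the 6 libraries (CPM, log axis); each point is 1 of the genes tested, and coloured points are the tested members of 5 gene lists. The E7 gene itself lies above the axis and is not drawn. Replication, antiviral and small proline-rich genes lie above 0, and complement and collagen genes mostly below it.

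The genes largest in change were a mixed group. Among genes at 5 CPM or more in the higher group, with no overlap between the groups, the 12 largest rises were those of Apol9a, Adgrg7, Arc, Cxcl10, Nppb, Pyy, Apol9b, Lpo, Arhgap20, Lce3d, Lce3f and Ifit1bl1. Nppb, which encodes the natriuretic peptide BNP, lay at 1.25, 1.45 and 2.23 CPM in the C57 grafts and at 16.6, 19.6 and 24.1 CPM in the E7 grafts, a log2 fold change of 3.59 ± 0.39 (SE; adjusted p = 2.2e-05). Arhgap20, a GTPase-activating protein, was at 5.65 to 11.3 CPM in C57 grafts and at 68.6 to 79.5 CPM in E7 grafts (log2 fold change 3.16 ± 0.28). Lpo, lactoperoxidase, was at 6.23 to 9.76 CPM against 66.1 to 83.7 CPM (3.19 ± 0.27). A single library carried 2 of the rises: Pyy, the gut peptide YY, was at 2.53 and 2.51 CPM in E7 replicates 1 and 2 and at 21.6 CPM in replicate 3, and Adgrg7 was at 2.69, 2.29 and 18.3 CPM. Without E7 replicate 3 neither passed the threshold, and Pyy was lost without C57 replicate 3 as well.

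The 12 largest falls by the same rule were those of Krt24, Prg4, Saa3, Skint5, Gabra3, Hba-a2, Spp1, C6, Cd209f, Hbb-b1, Scara5 and Chrdl1. Krt24, a keratin of the differentiating epidermis, went from 10.9 to 13.3 CPM in the C57 grafts to 0.575 to 0.982 CPM in the E7 grafts (log2 fold change -3.80 ± 0.71, adjusted p = 0.0017). Skint5, of the Skint family of keratinocyte proteins that act on epidermal gamma-delta T cells, was at 44.5, 19.8 and 36.1 CPM in C57 grafts and at 5.06, 2.73 and 9.08 CPM in E7 grafts (-2.58 ± 0.41, adjusted p = 5.6e-04). Spp1, osteopontin, was at 85.3 to 281 CPM against 25.5 to 37.9 CPM (-2.38 ± 0.49). Of these 12 falls, only those of Krt24, Prg4, Skint5 and Spp1 stayed past the threshold when any single library was left out; Saa3 was lost without C57 replicate 3 alone, and leaving out either C57 replicate 3 or E7 replicate 1 ended the calls of the remaining 7. All of those 7 except Hba-a2 were also lost without E7 replicate 2, Hba-a2, Hbb-b1 and Cd209f without E7 replicate 3, Hbb-b1 without C57 replicate 1 and Cd209f without C57 replicate 2. Prg4 did not pass in a fit on the 2 groups alone, with or without a replicate block.

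The genes upstream of E2F changed unevenly. Of 10 pRb pathway inhibitors and pocket proteins, 6 rose and none fell (median log2 fold change 0.53). Rbl1, which encodes p107 and is itself an E2F target, lay at 41.2, 41.4 and 37.3 CPM in C57 grafts and at 86.5, 89.6 and 77.6 CPM in E7 grafts (1.08 ± 0.11, adjusted p = 1.0e-05). Rbl2, which encodes p130, was at 57.9 to 65.4 CPM and at 53.2 to 59.4 CPM, with overlap and no call (-0.12 ± 0.08, adjusted p = 0.28). Rb1 itself rose by 0.46 ± 0.08, and the inhibitors Cdkn1a (p21), Cdkn2d, Cdkn2c and Cdkn2a by 0.84, 0.99, 0.60 and 1.33; of these, Cdkn2c was lost without C57 replicate 2 or 3 or E7 replicate 2, and Cdkn2a without C57 replicate 3 or E7 replicate 1 or 3. Among the E2F factors and their partners, 6 of 10 rose: E2f8 (1.51 ± 0.16) and E2f7 (1.16 ± 0.20), the atypical E2F repressors, then the partner Tfdp1 (0.80 ± 0.10), E2f2, E2f1 and E2f4. E2f3, E2f5 and E2f6 overlapped between the groups. E2f2 was lost without C57 replicate 3.

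Among 12 cyclins and cyclin-dependent kinases, 7 rose and 1 fell, and the largest rises were those of cyclin E, which drives entry into S phase. Ccne1 lay at 10.1, 9.41 and 7.51 CPM in C57 grafts and at 46.8, 49.7 and 50.9 CPM in E7 grafts, a 5.46-fold rise (log2 fold change 2.45 ± 0.25, adjusted p = 1.5e-05). Ccne2 went from 3.87 to 6.66 CPM to 24.4 to 30.5 CPM (2.35 ± 0.32). Cdk1, Ccnb1, Ccna2, Cdk2 and Ccnb2 rose by 0.67 to 1.00 on the log2 scale. The D-type cyclins, which act before pRb, went the other way or stayed: Ccnd2 was at 150 to 221 CPM against 90.5 to 135 CPM (-0.60 ± 0.22, adjusted p = 0.047), Ccnd1 was lower in every E7 graft without passing the threshold (-0.51 ± 0.22, adjusted p = 0.085), and Ccnd3, Cdk4 and Cdk6 overlapped. The call of Ccnd2 was lost when either C57 replicate 1 or 2 or E7 replicate 1 or 2 was left out.

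Replication and mitosis genes moved almost as a block. Of 36 genes of the replication origin and fork 35 rose (median 1.04), and all 26 mitosis genes rose (median 1.00). Mcm5, a subunit of the replicative helicase, was at 55.0, 58.1 and 46.1 CPM in C57 grafts and at 207, 223 and 190 CPM in E7 grafts (1.96 ± 0.15, adjusted p = 1.8e-06). Mcm6, another subunit, which was chosen after its values were seen because its promoter is printed here, rose by 1.67 ± 0.14. Among enzymes of DNA precursor supply 9 of 13 rose and 1 fell (Tk2, lost without C57 replicate 3 or E7 replicate 1 or 2): Rrm2, the regulated subunit of ribonucleotide reductase, went from 31.3 to 35.6 CPM to 155 to 176 CPM (2.31 ± 0.26), with Rrm1 at 1.38 and Dck at 1.04. The subunits of chromatin assembly factor 1, Chaf1a and Chaf1b, rose by 1.39 and 1.52 among 11 of 13 chromatin-copying genes. The summed level of the 12 basal and suprabasal keratins was 39320 to 48860 CPM in C57 grafts and 54720 to 93480 CPM in E7 grafts. Krt1 and Krt10 weighed most on it, with 40230 and 37060 CPM of the 93480 CPM in E7 replicate 2. Of the 12 keratins 3 rose and 1 fell, with a median log2 fold change of 0.08. The basal keratin Krt5 was at 4152 to 5405 CPM and at 5132 to 5471 CPM. The part of this keratin sum in the rise of the replication and mitosis genes was not tested.

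Some promoters of this group hold an E2F-type sequence. In the 250 bases before the start site of each gene with a RefSeq promoter (build GRCm38.p6), both strands were searched for TTTGGCGC, TTTCGCGC and TTTCCCGC. At least 1 of these was found in 8 of the 28 replication genes with such a sequence, among them Mcm5, Mcm6, Mcm7, Cdc6 and Orc1, in none of 23 mitosis genes and in 1.78% of all 27025 genes. Of the genes tested that have a RefSeq promoter, 5.81% of those that rose, 1.94% of those that fell and 2.62% of the rest held a match. These lists were set with the results known. The matches are descriptions of letters and not shown to be binding sites. The 60 bases around the first match, 5′ to 3′ on the gene's strand with the match in capitals, were these, for Mcm5 at chr8:75109330-75109389 (plus strand) and for Mcm6 at chr1:128359782-128359841 (minus strand):
Mcm5: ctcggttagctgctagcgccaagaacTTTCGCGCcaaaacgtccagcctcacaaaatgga
Mcm6: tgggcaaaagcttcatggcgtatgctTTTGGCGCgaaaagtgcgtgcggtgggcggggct

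DNA repair genes rose with replication, while the p53 targets were split. Of 20 repair genes 16 rose (median 0.98), among them Chek1, the checkpoint kinase, at 7.04 to 8.54 CPM against 20.1 to 23.6 CPM (1.51 ± 0.18), Brca2 (1.49 ± 0.15) and Fanca (1.33 ± 0.14). Of 22 p53 targets 9 rose and 13 passed no threshold, with a median of 0.28. Pmaip1, which encodes the death-promoting protein Noxa, was at 16.0, 14.5 and 16.7 CPM in C57 grafts and at 42.2, 53.7 and 54.8 CPM in E7 grafts (1.68 ± 0.23, adjusted p = 1.4e-04). Cdkn1a, the inhibitor p21, rose from 224 to 271 CPM to 415 to 483 CPM (0.84 ± 0.18), and Plk3 and Mdm2 rose by 0.64 and 0.55. Without C57 replicate 3, and likewise without E7 replicate 1, 5 of the 22 p53 targets passed.

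**Figure D2:**
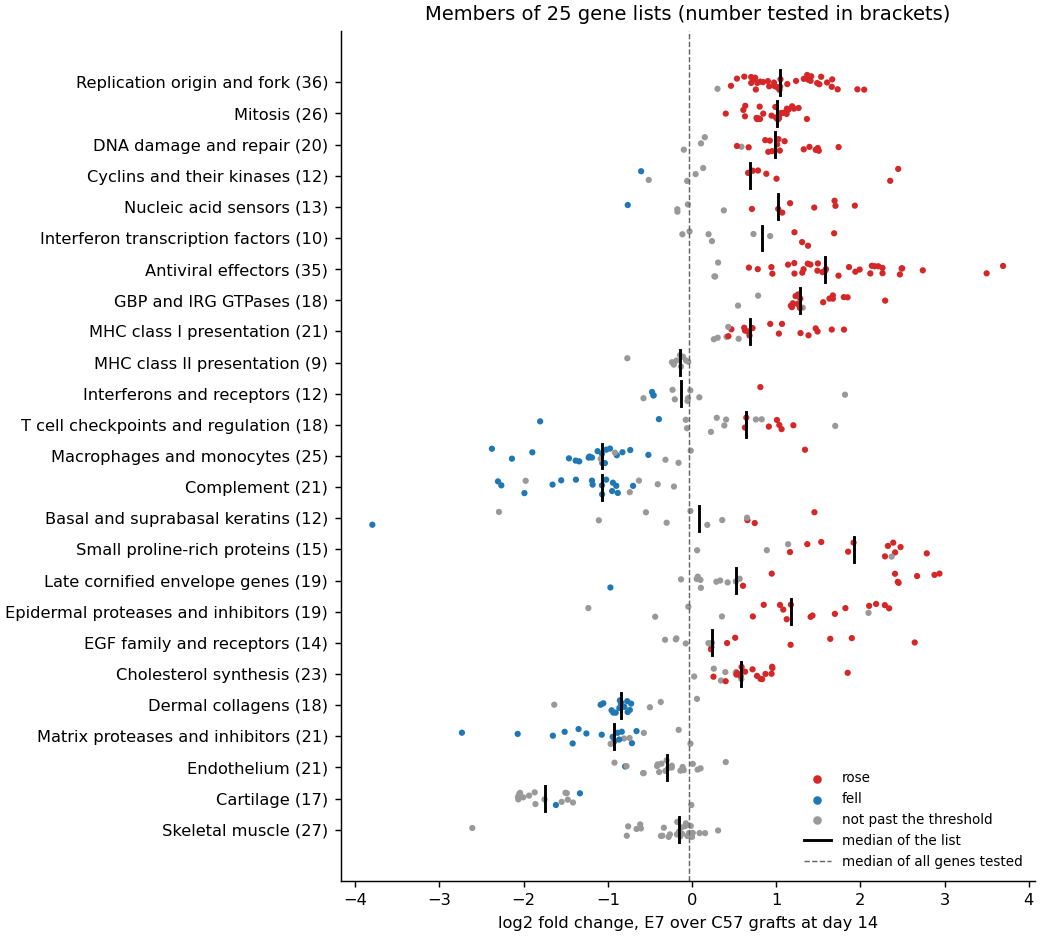
Log2 fold change of E7 over C57 grafts at day 14 for every tested member of 25 gene lists; each point is a gene, red where it rose, blue where it fell and grey where it did not pass the threshold, and the bar is the list's median. Replication, mitosis and antiviral lists lie to the right of the dashed median of all genes, macrophage, complement and collagen lists to the left, and MHC class II genes around it.

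A broad antiviral programme was higher in the E7 grafts. Interferons bind cell-surface receptors, activate transcription factors of the STAT and IRF families, and through them raise many effector genes, many of which carry an interferon-stimulated response element. Of 35 antiviral effectors tested, 32 rose and none fell, with a median log2 fold change of 1.58. Isg15, a ubiquitin-like modifier, lay at 9.01, 21.1 and 19.4 CPM in C57 grafts and at 100, 83.9 and 146 CPM in E7 grafts (2.74 ± 0.34, adjusted p = 9.2e-05). Ifit1, which binds foreign RNA, went from 9.26 to 25.0 CPM to 80.3 to 144 CPM (2.50 ± 0.36). Isg15 and Ifit1 were chosen after their values were seen, because their promoters are printed here. Parp9, with the smallest p of this list, went from 32.8 to 42.6 CPM to 102 to 126 CPM (1.59 ± 0.14). The near-identical pair Apol9a and Apol9b rose by 3.69 and 3.50 and may share reads. In all of these genes the 3 E7 grafts stood above the 3 C57 grafts, and E7 replicate 3 was the highest library.

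Sensors and transcription factors of this pathway rose as well. Of 13 nucleic acid sensors 8 rose and 1 fell. Cgas, the cytosolic DNA sensor, lay at 10.6, 12.6 and 12.9 CPM in C57 grafts and at 34.8, 40.6 and 42.2 CPM in E7 grafts (1.70 ± 0.14, adjusted p = 2.3e-06). The RNA sensors Ifih1 (1.93 ± 0.14), Eif2ak2 (1.45 ± 0.15) and Ddx58 (1.17 ± 0.14) rose too, while Tlr7, an endosomal RNA sensor of immune cells, fell (-0.76 ± 0.26, adjusted p = 0.039), a call that was lost when C57 replicate 2 or 3 or E7 replicate 1 or 2 was left out. Stat2 went from 66.6 to 98.7 CPM to 181 to 274 CPM (1.38 ± 0.17), with Irf7 at 1.31 and Irf9 at 1.22, while Irf1, Irf2, Irf3, Irf5, Irf8 and Batf2 did not pass. Irf7 was lost in a fit on the 2 groups alone.

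Interferon transcripts themselves were near the floor. Summed over 3 libraries, Ifnb1 had 0 counts in C57 grafts and 1 in E7 grafts, Ifnl2 had 0 and 5, Ifnl3 had 0 and 3, and Ifnk and Ifne had none; a count of 0 in a library allows a level of up to 0.302 to 0.446 CPM. Ifng was at 0.5, 0 and 0.117 CPM in C57 grafts and at 0.791, 0.327 and 1.26 CPM in E7 grafts, which overlap (adjusted p = 0.14). Of the receptors and their kinases, Ifnar1 (-0.47 ± 0.12), Ifngr1 (-0.46 ± 0.16) and Il10rb (-0.46 ± 0.14) fell, Ifnar2, Ifngr2, Ifnlr1, Jak1, Jak2, Tyk2 and Socs3 did not pass, and the inhibitor Socs1 rose (0.81 ± 0.27) with E7 replicate 3 at 27.0 CPM and the other E7 grafts at 13.9 and 11.8 CPM. Without C57 replicate 3 none of these 4 calls held. Il10rb was also lost without E7 replicate 1 or 2, Ifngr1 without any library except C57 replicate 2, and Socs1 without C57 replicate 1 or 2 or E7 replicate 3.

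The interferon-inducible GTPases, which attack pathogens inside cells, rose in 15 of 18 cases (median 1.28). Igtp lay at 13.5, 19.7 and 21.5 CPM in C57 grafts and at 69.3, 73.3 and 125 CPM in E7 grafts (2.29 ± 0.30, adjusted p = 1.3e-04). Iigp1 rose by 1.85 ± 0.36, Irgm1 by 1.56 ± 0.24 and Gbp7 by 1.29 ± 0.24. E7 replicate 3 weighed on this group: the summed level of the 18 genes was 260 to 413 CPM in C57 grafts, 764 and 807 CPM in E7 replicates 1 and 2 and 1382 CPM in replicate 3, and without replicate 3 the count was 9 of 18.

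Several of these promoters hold a sequence like an interferon-stimulated response element, searched as GAAANNGAAA on both strands in the same 250 bases. It was found in 10 of 11 GTPase genes with a RefSeq promoter, in 13 of 27 antiviral effectors, in 3 of 16 genes of MHC class I presentation and in 3.46% of all 27025 genes. Of the genes tested, 4.45% of those that rose, 2.67% of those that fell and 3.25% of the rest held it. The motif and these lists were set with the results known. These matches too are descriptions of letters and not shown to be binding sites. Matches that overlap the first, as in Isg15 and Irgm1, are not in capitals. The 60 bases around the first match, 5′ to 3′ with the match in capitals, are given for 2 effectors, the chemokine gene Cxcl10 and 2 GTPase genes, at chr4:156200862-156200921 (Isg15, minus strand), chr19:34640760-34640819 (Ifit1, plus strand), chr5:92349068-92349127 (Cxcl10, minus strand), chr11:58199496-58199555 (Igtp, plus strand) and chr11:48871421-48871480 (Irgm1, minus strand):
Isg15: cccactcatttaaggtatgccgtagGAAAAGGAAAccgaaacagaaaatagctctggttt
Ifit1: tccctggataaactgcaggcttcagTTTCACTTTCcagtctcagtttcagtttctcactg
Cxcl10: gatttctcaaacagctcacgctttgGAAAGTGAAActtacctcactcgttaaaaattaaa
Igtp: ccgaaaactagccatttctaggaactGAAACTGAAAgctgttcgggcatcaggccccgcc
Irgm1: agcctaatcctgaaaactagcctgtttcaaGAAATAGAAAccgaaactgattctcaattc

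Antigen presentation divided by class. Of 21 genes of MHC class I presentation, the route that shows peptides of the cell's own proteins to CD8 T cells, 16 rose and none fell (median 0.68). Nlrc5, the transactivator of class I genes, lay at 81.7, 77.0 and 80.7 CPM in C57 grafts and at 188, 176 and 220 CPM in E7 grafts (1.29 ± 0.13, adjusted p = 1.2e-05). Tap1, the peptide transporter, rose by 1.38 ± 0.15, H2-T10 by 1.49 ± 0.21 and H2-Q7, whose close relatives may share its reads, by 1.80 ± 0.26. None of the 9 genes of MHC class II presentation passed the threshold in edgeR, and 1 did in DESeq2, with a median of -0.14: the log2 fold change of the transactivator Ciita was -0.11 ± 0.24, and H2-Ab1 was at 252 to 311 CPM and at 188 to 336 CPM. The number of class II genes at an unadjusted p below 0.05 was 1, that of Ctss (-0.77 ± 0.29, adjusted p = 0.061).

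Lymphocyte genes moved unevenly. The T cell receptor gene Cd3e lay at 5.00, 2.90 and 4.69 CPM in C57 grafts and at 3.00, 3.27 and 4.14 CPM in E7 grafts (-0.28 ± 0.39, adjusted p = 0.62), and Cd4, Cd8a and Foxp3 overlapped too. Of 18 T cell genes 4 rose, among them Cd6, Lck and Cd5 by 1.21, 0.90 and 0.58, and Thy1, which fibroblasts also express, fell by 0.64; Cd6 and Thy1 held without any single library, Cd5 was lost without C57 or E7 replicate 2, and Lck without replicate 1 or 3 of either group. The summed level of the 18 T cell genes, which the most abundant members set, was lower in every E7 graft, at 228.5 to 256.5 CPM against 268.3 to 318.9 CPM. The members leaned the other way, with a median log2 fold change of 0.51. Of the 18, 7 lay above without overlap and 1 below, against 23.1% and 24.1% of all genes tested. Of 18 checkpoint and regulatory genes 7 rose and 2 fell: Il2ra, the IL-2 receptor chain of activated and regulatory T cells, went from 2.90 to 4.69 CPM to 7.43 to 9.65 CPM (1.06 ± 0.23, adjusted p = 0.0035), Icos from 5.00 to 6.92 CPM to 9.49 to 12.6 CPM (0.91 ± 0.20), and Cd274, the checkpoint ligand PD-L1, from 16.0 to 20.3 CPM to 32.4 to 46.5 CPM (1.04 ± 0.17). Tnfrsf18 rose by 0.63, a call lost in a fit on the 2 groups alone, with or without a replicate block. The regulatory cytokines Il10 and Tgfb1 fell by 1.80 and 0.39. Without C57 replicate 3 the falls of Il10 and Tgfb1 were lost, and that of Tgfb1 also without E7 replicate 1 or 2. Without any 1 library other than C57 replicate 1, 2 T cell genes rose instead of 4. Of 17 cytotoxic and natural killer genes only Klrk1 passed (0.99 ± 0.31, adjusted p = 0.025), which was lost without C57 replicate 1 or 2 or E7 replicate 1 or 3; Gzmb was at 1.16 to 2.11 CPM and at 1.85 to 5.29 CPM (adjusted p = 0.11).

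Chemokines moved in both directions. Cxcl9, Cxcl10 and Cxcl11, the interferon-induced ligands of CXCR3, a chemokine receptor found on T cells, rose. Cxcl10 lay at 5.00, 11.3 and 8.33 CPM in C57 grafts and at 63.4, 95.2 and 146 CPM in E7 grafts, a 12.5-fold rise (3.64 ± 0.42, adjusted p = 6.6e-05), Cxcl9 went from 3.38 to 12.9 CPM to 38.6 to 63.9 CPM (2.66 ± 0.60), and Cxcl11 was higher at low level (2.59 ± 0.67). Ccl20, which keratinocytes make and which draws CCR6-bearing cells, was at 2.63, 1.74 and 2.23 CPM against 6.80, 12.1 and 22.9 CPM (2.66 ± 0.58, adjusted p = 0.0040). Ccl22, a ligand of CCR4, rose from 9.41 to 10.4 CPM to 18.0 to 19.2 CPM (0.93 ± 0.23). All 5 rises held without any single library.

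The chemokines that fell were Ccl6, Ccl9 and Ccl11 (-1.44, -1.44 and -1.05), Pf4 (-1.27 ± 0.36) and Cxcl13 (-3.05 ± 0.92). All 5 calls were lost without C57 replicate 3 and without E7 replicate 1, all except Pf4 also without E7 replicate 2, and Ccl6 without C57 replicate 1 or 2; C57 replicate 3 was the highest library for each of them. Among 19 chemokine receptors 4 rose and 4 fell. Ccr8 (1.55 ± 0.42) and Ccr6 (1.17 ± 0.32), both found on T cells, rose with Cxcr2 and Cxcr6, and Cxcr4 (-0.93 ± 0.21), the scavenging receptors Ackr3 and Ackr4, and Ccr3 fell. Ccr8, Cxcr4, Ackr3 and Ackr4 held without any single library, but Ackr3 was lost in a fit on the 2 groups alone. Ccr6 was lost without C57 replicate 1 or E7 replicate 3, Ccr3 without replicate 1 or 3 of either group, Cxcr2 and Cxcr6 without C57 replicate 2 or 3 or E7 replicate 2, Cxcr2 also without E7 replicate 3 and Cxcr6 without E7 replicate 1, and 2 receptors rose instead of 4 without C57 replicate 2 or 3 or E7 replicate 2 or 3.

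Epidermal cytokines of the IL-1 family rose, IL-1 beta did not. Of 17 members 7 rose and 1, the IL-33 receptor Il1rl1, fell (-0.98 ± 0.35, adjusted p = 0.047; lost without any library except C57 replicate 2). Il1a lay at 15.0, 15.8 and 16.4 CPM in C57 grafts and at 35.1, 33.0 and 36.5 CPM in E7 grafts (1.15 ± 0.12, adjusted p = 2.1e-05). Il1f8 and Il1f9, which encode IL-36 beta and gamma, rose by 1.47 ± 0.20 and 1.23 ± 0.16, and Il1f5, their receptor antagonist, by 1.07 ± 0.17. Il1b was at 5.75, 5.36 and 28.9 CPM and at 11.6, 14.4 and 10.9 CPM (-0.14 ± 0.64, adjusted p = 0.89).

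In a list of IL-17, IL-20 and acute cytokine genes with some of their receptors, 4 of 16 rose, 3 of them from almost nothing. Il23a, the IL-23 subunit, was at 0.5, 0.145 and 0.117 CPM in C57 grafts and at 1.26, 1.85 and 4.48 CPM in E7 grafts (3.26 ± 0.66, adjusted p = 0.0021). Csf2, which encodes GM-CSF, was at 0.5, 0 and 0 CPM against 0.949, 1.85 and 2.64 CPM (adjusted p = 0.010), and Il19 was at 0.145 to 0.375 CPM against 0.982 to 5.29 CPM (adjusted p = 0.010), lost without E7 replicate 3. Fitted fold changes at these levels depend on the prior count. Il17rc, a subunit of the IL-17 receptor, rose by 0.52 ± 0.09. Il17a had counts in 1 E7 library only, at 0.218 CPM.

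Macrophage genes fell. Of 25 genes of macrophages and monocytes, 19 fell and 1 rose, with a median log2 fold change of -1.07. Csf1r, the growth factor receptor of the lineage, lay at 156, 146 and 293 CPM in C57 grafts and at 61.2, 83.0 and 112 CPM in E7 grafts (-1.22 ± 0.31, adjusted p = 0.0099). Adgre1, which encodes F4/80, was at 79.2 to 118 CPM against 31.8 to 54.7 CPM (-1.12 ± 0.28), and Trem2, Cd14 and Mertk, which sense and clear debris, fell by 1.46, 1.03 and 0.73. Ly6c2, a marker of inflammatory monocytes, rose from 4.75 to 9.12 CPM to 11.7 to 20.7 CPM (1.34 ± 0.30). The groups did not overlap in any of these genes, but C57 replicate 3 was high and the count depended on single libraries: 8 genes fell without C57 replicate 3, 9 without E7 replicate 1 and 7 without E7 replicate 2. Csf1r, chosen after its values were seen, was lost without C57 replicate 3 and in a fit on the 2 groups alone.

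Complement genes, most of which macrophages and fibroblasts make in skin, followed the same pattern. Of 21, 16 fell and none rose (median -1.07); the C1q genes are counted in both lists. C3, the central component, lay at 375, 304 and 960 CPM in C57 grafts and at 90.5, 101 and 221 CPM in E7 grafts (-1.99 ± 0.47, adjusted p = 0.0070). The regulator Serping1 (-1.18 ± 0.27) and the protease C1s1 (-0.90 ± 0.22) fell with it. In a fit on the 2 groups alone C3 and Serping1 did not pass. Without C57 replicate 3 the count was 6, without E7 replicate 1 it was 8 and without E7 replicate 2 it was 7. Lists of other leukocytes held few calls: none of 12 mast cell genes passed with edgeR or DESeq2 or at an unadjusted p below 0.05 (median 0.18; Mcpt4 at 40.0 to 59.9 CPM and at 43.6 to 63.2 CPM), none of 8 B cell genes passed with either tool and 1 did at an unadjusted p below 0.05, and of 16 dendritic cell genes 1 rose with edgeR, while 1 rose and 1 fell with DESeq2, with Cd207 of Langerhans cells at 8.69 to 12.6 CPM and at 5.54 to 10.5 CPM. Leaving out C57 replicate 3 gave 1 mast cell gene that rose, and leaving out C57 replicate 1 or E7 replicate 3 gave 2 dendritic cell genes that fell. The summed level of the dendritic cell genes was lower in every E7 graft, at 209.1, 220.6 and 251.9 CPM against 252.2, 254.5 and 326.9 CPM, whereas the mast cell sums overlapped.

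**Figure D3:**
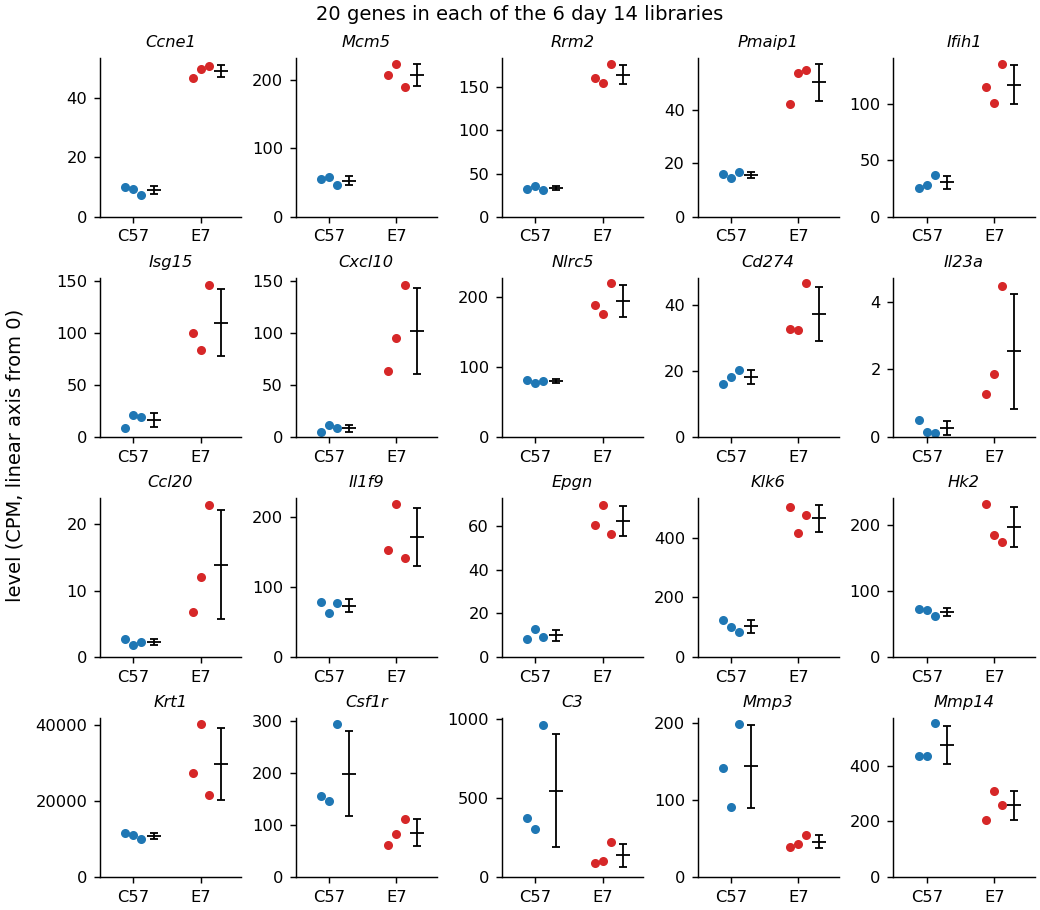
Levels (CPM, linear axes from 0) of 20 genes in each of the 6 day 14 libraries, with C57 grafts in blue and E7 grafts in red; dots are libraries in replicate order, and the bar beside them is the mean ± SD of 3. Ccne1, Mcm5 and Rrm2 are far apart with little spread, while Csf1r and C3 are drawn up in C57 replicate 3.

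In the epidermis, the early differentiation keratin Krt1 lay at 11470, 11090 and 10010 CPM in C57 grafts and at 27430, 40230 and 21570 CPM in E7 grafts (1.45 ± 0.27, adjusted p = 0.0012), while its partner Krt10 overlapped (0.65 ± 0.29, adjusted p = 0.095). Krt14, the basal keratin whose promoter drives E7, was at 3946 to 6147 CPM and at 6804 to 8662 CPM (0.66 ± 0.19, adjusted p = 0.018), and its partner Krt5 did not pass (0.18 ± 0.14). Krt80 rose by 0.75 ± 0.14. Krt2, of the upper ear epidermis, was lower in every E7 graft, at 922, 848 and 1642 CPM against 5752, 3000 and 7954 CPM, without passing (-2.29 ± 0.90, adjusted p = 0.067). Of 10 wound and simple epithelial keratins Krt16 and Krt6a rose; Krt16, a keratin of wounded and hyperproliferative epidermis, was at 1241, 619 and 967 CPM in the healing C57 grafts and at 4103, 3352 and 3561 CPM in E7 grafts (1.96 ± 0.29). Krt17 overlapped. Krt14 and Krt6a were lost without C57 replicate 2 or 3 or E7 replicate 1.

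The cornified envelope, the protein shell of dead surface cells, changed in part. Of 15 small proline-rich proteins 11 rose (median 1.92): Sprr2h lay at 56.2, 42.3 and 47.0 CPM in C57 grafts and at 311, 242 and 211 CPM in E7 grafts (2.39 ± 0.20, adjusted p = 4.6e-06), with Sprr2g at 2.79 and Sprr1b at 2.41. In 5 of the 15 the E7 grafts stood above every C57 graft, against 23.1% of all genes tested. The Sprr2 genes are near copies of each other, so their separate values are uncertain. Fitted on the 2 groups alone, where 13 were tested, 3 passed, and without C57 replicate 2 it was 7 of 15. Of 19 late cornified envelope genes 8 rose and 1 fell: all 6 Lce3 genes rose, for instance Lce3c from a mean of 41.0 ± 5.75 CPM (SD, n = 3) to one of 219 ± 67.5 CPM (2.41 ± 0.26), with Lce1f and with Lce1e, which was lost without any library except E7 replicate 3, whereas Lce1m fell from 97.4 to 132 CPM to 52.5 to 65.9 CPM (-0.97 ± 0.25). Of 27 cornification proteins and enzymes 17 rose, among them Cnfn (1.43 ± 0.14), Asprv1, the protease that trims filaggrin (1.11 ± 0.16), and Cdsn, corneodesmosin (0.79 ± 0.11), and 1 fell, Flg2 (-0.98 ± 0.19), a filaggrin relative.

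Proteases of the epidermal surface rose in step. Of 19 epidermal proteases and inhibitors 14 rose and none fell (median 1.18). Klk6, a kallikrein, was at 124, 98.9 and 82.8 CPM in C57 grafts and at 503, 414 and 477 CPM in E7 grafts (2.19 ± 0.14, adjusted p = 5.4e-07). Klk13 (1.82 ± 0.23), Klk9 (1.70 ± 0.13) and Klk7, which cuts the desmosomes of shedding cells (1.08 ± 0.10), rose with it. Of 17 antimicrobial proteins 5 rose and 2 fell; beside Lpo, the peptidoglycan-binding protein Pglyrp3 went from 5.79 to 7.01 CPM to 27.7 to 30.3 CPM (2.13 ± 0.22). The fall of Reg3g was lost without C57 replicate 1 or E7 replicate 2 and that of Lyz1 without any library except E7 replicate 3, and 3 antimicrobial genes rose without C57 replicate 3 or without E7 replicate 1 or 2. The neutrophil list (6 of 14 rose, 1 fell) was led by the stefin A genes Stfa3, Stfa1 and Stfa2 and by Cstdc5, which keratinocytes also express and which are near copies; S100a8 was at 5.50 to 32.6 CPM and at 14.4 to 116 CPM with no call (adjusted p = 0.12).

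Ligands of the EGF receptor, which drive keratinocyte growth and migration, rose. Epgn, epigen, lay at 8.01, 12.9 and 9.15 CPM in C57 grafts and at 60.7, 69.8 and 56.4 CPM in E7 grafts, a 6.25-fold rise (2.65 ± 0.50, adjusted p = 0.0018). Ereg, epiregulin, went from 62.8 to 67.1 CPM to 234 to 256 CPM (1.90 ± 0.33) and Hbegf from 14.1 to 17.7 CPM to 48.5 to 51.3 CPM (1.64 ± 0.34). The receptor Erbb3 rose by 0.42 ± 0.09. In all, 7 of the 14 genes of this family rose and none fell, but 4 rose without C57 replicate 2 or 3 or E7 replicate 2. Among 23 fate regulators 7 rose and 1 fell: Ovol1 (1.30 ± 0.15) and Grhl3 (1.13 ± 0.19), transcription factors of epidermal differentiation, with Tfap2c and Zfp750, while the Notch ligand Jag1 fell (-0.40 ± 0.14, adjusted p = 0.041), lost without C57 replicate 1 or 2 or E7 replicate 2 or 3. Of 26 adhesion genes 7 rose and 2 fell; suprabasal Dsc1 (1.10 ± 0.20), Dsg1b (1.01 ± 0.25) and the connexin Gjb6 (1.15 ± 0.21) rose, and Dst, which anchors keratin to the hemidesmosome, fell (-0.47 ± 0.08). Of 13 gasdermin and inflammasome genes 3 rose and 1 fell; Gsdmc went from 76.4 to 128 CPM to 195 to 322 CPM (1.36 ± 0.30). Of 21 hair follicle regulators 0 rose and 3 fell, of which Cd34 (-0.96 ± 0.21) held without any single library.

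Immediate early and metabolic genes completed the rises. Of 25 immediate early genes 11 rose and 1, Klf2, fell. Arc lay at 9.88, 15.1 and 12.7 CPM in C57 grafts and at 151, 133 and 185 CPM in E7 grafts (3.64 ± 0.54), with Maff (1.27 ± 0.16), Ier3 (1.27 ± 0.14) and Junb (1.14 ± 0.17), while Fos did not pass (1.46 ± 0.56, adjusted p = 0.061). The call of Klf2 was lost without C57 replicate 3 or E7 replicate 1 or 2. Of 20 hypoxia and glycolysis genes 9 rose and 2 fell. Hk2, the inducible hexokinase, was at 73.6, 71.1 and 61.9 CPM against 233, 186 and 174 CPM (1.52 ± 0.14, adjusted p = 7.6e-06), and Ankrd37 rose by 2.19 ± 0.32, whereas Car9, a classic hypoxia target, fell (-1.19 ± 0.36), with C57 replicate 3 at 9.50 CPM and the other C57 grafts at 2.63 and 3.62 CPM; it was lost without that library and without E7 replicate 1 or 2.

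Of 23 genes of cholesterol synthesis and uptake 16 rose and none fell (median 0.59). Stard4, a carrier of cholesterol within the cell, lay at 52.8, 47.0 and 45.6 CPM in C57 grafts and at 107, 93.2 and 82.5 CPM in E7 grafts (0.96 ± 0.14, adjusted p = 2.1e-04), with the groups apart. Fdps and Sc5d, enzymes of the pathway, rose by 0.83 and 0.58. Of 14 genes of amino acid and one-carbon metabolism 8 rose, led by Mthfd2, the mitochondrial folate enzyme, at 15.6 to 17.5 CPM against 35.0 to 37.0 CPM (1.11 ± 0.12). The count was 5 without C57 replicate 1 or 3 or E7 replicate 1 or 2. Of 24 respiratory chain genes 7 rose and 1 fell, with a median of 0.16. Of 15 heat shock genes 9 rose and 1 fell by small steps (Hsp90aa1 0.51 ± 0.11), and 3 rose without C57 replicate 3.

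Dermal genes fell. Of 18 collagens 14 fell and none rose (median -0.84). Col1a1 lay at 11380, 9832 and 13430 CPM in C57 grafts and at 4998, 7925 and 6119 CPM in E7 grafts (-0.86 ± 0.25, adjusted p = 0.016), and Col16a1 at 426 to 471 CPM and at 246 to 300 CPM (-0.72 ± 0.13, adjusted p = 8.7e-04). The groups did not overlap, yet single libraries decided the number: without C57 replicate 3 or without E7 replicate 1 only 1 of 18 collagens passed, without E7 replicate 3 it was 4 and without C57 replicate 1 it was 9. Col1a1 was among those lost without C57 replicate 3 or E7 replicate 1.

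Of 29 elastic, adhesive and proteoglycan genes 15 fell and none rose, among them Mfap5 (-1.32 ± 0.29), Thbs2 (-1.23 ± 0.29) and Fbln2 (-1.13 ± 0.27). Of 21 matrix proteases and inhibitors 15 fell: Mmp14, the membrane-bound collagenase, lay at 436, 437 and 555 CPM in C57 grafts and at 205, 310 and 259 CPM in E7 grafts (-0.88 ± 0.15, adjusted p = 8.5e-04), Mmp3, stromelysin, at 91.2 to 198 CPM and at 38.8 to 55.0 CPM (-1.65 ± 0.32), Adamts5 fell by 1.35 and the inhibitor Timp3 by 1.07. Of 21 myofibroblast and TGF-beta genes 8 fell, with Pdgfrb at 148 to 209 CPM against 93.9 to 107 CPM (-0.79 ± 0.12), while Acta2, the smooth muscle actin of myofibroblasts, did not pass (-0.65 ± 0.27, adjusted p = 0.081). Without C57 replicate 3 the 3 counts were 6, 7 and 4, and without E7 replicate 1 they were 6, 8 and 4; the genes named so far in this paragraph as having fallen held without any single library. Among 21 endothelial genes 1 passed the threshold (Tek, -0.79 ± 0.26, lost without C57 replicate 3 or E7 replicate 1 or 2), and 6 had an unadjusted p below 0.05. The list median was -0.30. In 9 of the 21 the E7 grafts lay below without overlap and in none above, against 24.1% and 23.1% of all genes tested. Their summed level was 790 to 1020 CPM in C57 grafts and 664 to 737 CPM in E7 grafts. Pecam1 was at 114 to 137 CPM and at 97.2 to 100 CPM without a call (adjusted p = 0.22).

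Summed levels of cartilage, red cell, muscle and hair shaft genes differed between libraries, and the source of these RNAs was not tested. The summed level of 18 cartilage genes was 770, 503 and 1426 CPM in C57 grafts and 87.8, 341 and 394 CPM in E7 grafts, and that of 4 red cell genes 31.7, 19.8 and 55.7 CPM and 9.96, 10.5 and 6.32 CPM, so in both the groups were apart and C57 replicate 3 was highest. Cartilage had a median log2 fold change of -1.75 with 2 of 17 genes past the threshold, Sox5 and Matn4; Matn4 was lost without any library except C57 replicate 2, and also with a filter of 1 CPM in 3 libraries, with no filter and in both fits on the compared groups alone. Of the 4 red cell genes 3 globins fell (Hba-a1, Hba-a2 and Hbb-bs). Each was lost without C57 replicate 3, E7 replicate 1 or E7 replicate 3. Without C57 replicate 1 the count was 2, and without E7 replicate 2 it was 1. Muscle sums, at 779, 2314 and 698 CPM and at 1318, 300 and 1792 CPM, and hair shaft sums, at 12770, 13530 and 8192 CPM and at 9619, 2423 and 7981 CPM, followed single libraries, with E7 replicate 2 lowest in both, and none of these 27 and 20 genes passed with edgeR or DESeq2; at an unadjusted p below 0.05 it was 0 muscle genes and 1 hair gene. Of 15 adipocyte genes 0 passed with either tool and 1 at an unadjusted p below 0.05. Of 13 Schwann cell genes 4 fell, with Cdh19 at 9.12 to 10.4 CPM against 3.64 to 5.06 CPM (-1.18 ± 0.24, adjusted p = 0.0021), and without C57 replicate 3 it was 2. The collagen sum, 36690 to 52170 CPM in C57 grafts and 19780 to 30320 CPM in E7 grafts, and the keratin sum given above moved in opposite directions between the groups; their part in the falls of matrix, macrophage and complement genes was not tested.

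**Figure D4:**
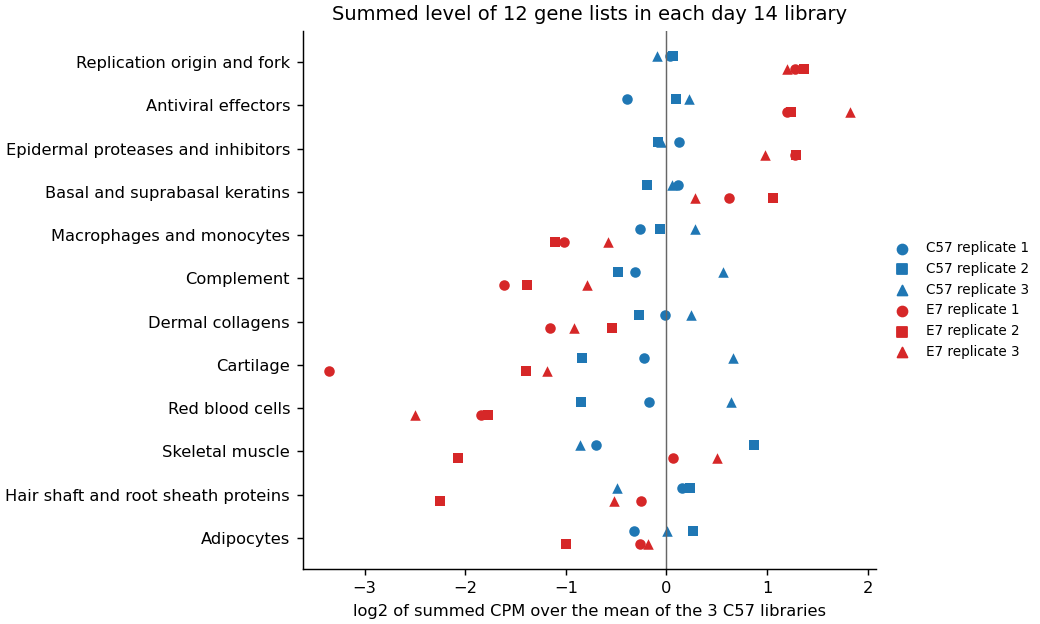
Summed level of 12 gene lists in each day 14 library, as log2 over the mean of the 3 C57 libraries; blue symbols are C57 grafts and red symbols E7 grafts, with circles, squares and triangles for replicates 1, 2 and 3. C57 replicate 3 is highest among C57 grafts for macrophage, complement, collagen, cartilage and red cell sums, and muscle, hair and adipocyte sums overlap between the groups.

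The later grafts bear on how lasting these differences were. Of the 2555 genes that rose at day 14, 2022 were past the threshold in the same direction at day 28 in other libraries and 8 in the opposite one, and of the 2334 that fell, 1323 and 3. At day 28, 20.7% of all genes tested were higher and 14.7% lower. The size of the difference changed between the days in 27 genes (0.167% of those tested), and their log2 difference was higher at day 28 in 24 of them. Of these 27 genes, 18 had risen at day 14, and in 16 of those the difference grew; 3 had fallen, and in all 3 it shrank or turned. The direction depended on the fit, since 86 of 155 genes were higher at day 28 with DESeq2 and 32 of 55 in the fit on the compared groups alone. For Krt16 the E7 grafts were at 3672 ± 388 CPM (SD, n = 3) at day 14 and 3299 ± 127 CPM at day 28, whereas the C57 grafts went from 942 ± 312 to 57.1 ± 24.4 CPM. Klk6 showed the same form, with E7 grafts at 465 and 429 CPM and C57 grafts at 102 and 22.5 CPM. Some lists had a smaller median at day 28, such as macrophages (-0.36) and complement (-0.33), where no member's difference between the days passed the threshold.

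**Figure D5:**
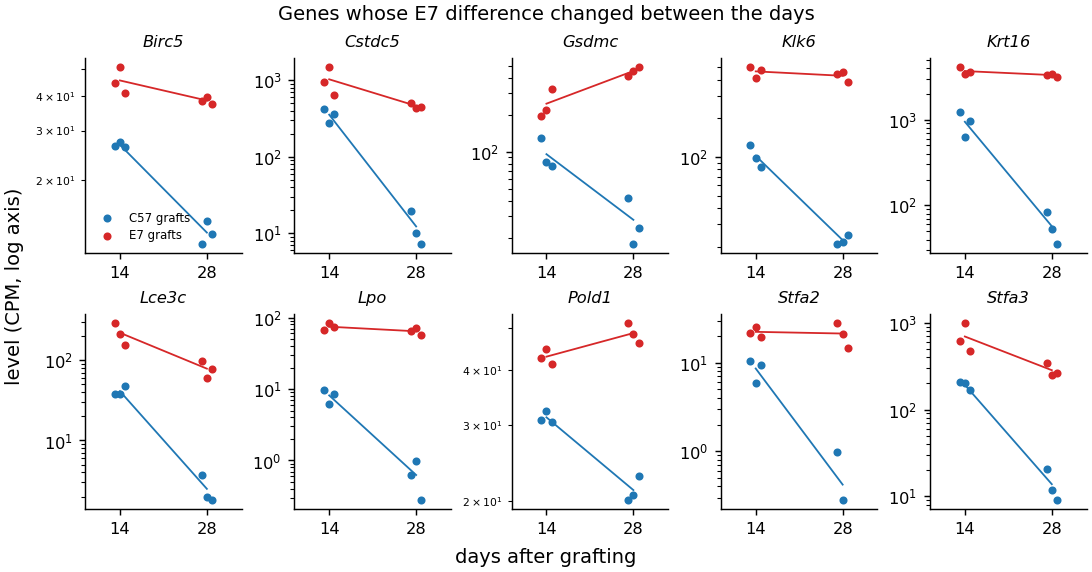
Levels (CPM, log axes) at 14 and 28 days after grafting of 10 genes whose E7 difference changed between the days; dots are libraries and lines join the means of 3 C57 grafts (blue) or 3 E7 grafts (red). One C57 library at day 28 with no Stfa2 count is not drawn. In most genes the blue line drops while the red one stays or drops less, as for Klk6 and Krt16.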

How the data were processed

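The deposited files held raw read counts per Entrez gene for each library, which the authors made from reads aligned to mm10, per the submitters' processing notes; those notes also name FastQC, Trimmomatic and bcl2fastq 1.8.4, and the aligner, counter and use of strand are not given in the sources used here. The kit, TruSeq RNA v2 per the labels' protocols, does not mark strand, so overlapping and antisense genes, and near-identical families, may share reads. Of 27180 rows, 25275 matched a RefSeq gene by identifier (GRCm38.p6), and rows without a match held 1.1% to 1.56% of the counts of the 6 libraries.

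Genes were kept by filterByExpr (minimum count 10, total 15) and scaled by TMM, and the 18 graft libraries in 6 groups were fitted together with edgeR 4.0.16 (robust quasi-likelihood, R 4.3.3); adjusted p-values are Benjamini-Hochberg over all 16189 genes. SEs were computed from the fold change and its F statistic, and CPM are counts scaled to a common size by the TMM-scaled library totals. The day difference is the E7 difference at day 28 minus that at day 14. In a simulation of this design with 200 changed genes, 157 were recovered with 7 false calls. It changed far fewer genes than were called here and drew each gene separately, without shifts shared by a library. It therefore gives no error rate for the calls reported here. Replicates of 1 group differed by more than counting noise (chi-square per degree of freedom 6.43 to 27.7), so none was a repeat deposit.

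The genes named are the E7 gene; the 12 largest rises and falls at 5 CPM or more; in lists of up to 12 tested genes any member, in longer ones up to 4 per direction with the smallest p; and a set of key genes. Others are marked as chosen after their values were seen. Some genes that met the rule are not reported here. The libraries and gene lists were chosen with earlier results of these data known. Promoters are those of RefSeq. Alternatives were other scalings and filters, a fit on the 2 groups alone, a replicate block, DESeq2 1.42.0 and leaving out each library.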

Additional observations from a re-analysis of the deposited data

Results flagged for a closer look

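In 10 of the genes described, the E7 difference at day 28 was larger than at day 14 by edgeR's test of the difference itself, adjusted over all genes tested. Values are log2 units added to the day 14 difference. Among keratinocyte genes these were Krt16 (3.88 ± 0.41, SE), Klk6 (2.07 ± 0.19), Lce3c (2.47 ± 0.42) and Gsdmc (2.63 ± 0.43). Among antimicrobial genes it was Lpo (3.46 ± 0.53). Among the stefin A genes and their relative they were Stfa3 (2.48 ± 0.43), Stfa2 (4.01 ± 0.71) and Cstdc5 (3.66 ± 0.49). Among cell cycle genes they were Birc5 (0.81 ± 0.13) and Pold1 (0.74 ± 0.12). In each of the 10 the C57 mean was lower at day 28 than at day 14. The E7 mean was higher at day 28 for Pold1 and Gsdmc and lower for the other 8. The 2 days are different libraries on the same flow cell lane.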

How the results depend on the processing

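The 4889 genes changed at day 14 became 4896 with RLE scaling, 4920 with upper quartile scaling (48.8% of them higher, against 52.3%), 4326 without a filter, 4870 with a filter of 1 CPM in 3 libraries, 4290 in a fit on the compared groups alone and 4881 with DESeq2, and 3043 to 4488 when 1 library was left out, lowest without C57 replicate 3. The 27 genes whose E7 difference changed between the days became 55 in the fit on the compared groups alone and 155 with DESeq2 (58.2% and 55.5% of them higher, against 88.9%), and 17 to 72 when 1 library was left out, highest without E7 replicate 3; the cause was not tested. Replicate numbers gave no sign of pairing: deviations of same-numbered grafts correlated at 0.072, -0.349 and 0.031, and those of differently numbered grafts at -0.38 to 0.305. With 3 libraries per group, this cannot show that the grafts were unpaired. With a replicate block the counts were 3751 and 46 (67.4% higher). Of the 202 genes named as changed, 144 passed under every alternative run, and none changed direction. Genes without a call whose direction turned when 1 library was left out were Il1b (-0.50 to 1.15; 0.24 with the replicate block), Cd4 (-0.19 to 0.49), Cdk6 (-0.01 to 0.28), H2-Ab1 (-0.26 to 0.13), Jak1 (-0.11 to 0.05), Jak2 (-0.14 to 0.02), Socs3 (-0.16 to 0.05), E2f5 (-0.10 to 0.05), E2f6 (-0.17 to 0.01), Ccnd3 (-0.11 to 0.02) and Irf3 (-0.05 to 0.01). The count for small proline-rich genes was 3 of 13 tested both in the fit on the compared groups alone and with the block, and the EGF family count was 4 without a filter. Depth limits genes near 1 CPM.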
